A study of Mus musculus with 4 samples.

Results

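Cytosolic ribosomal protein genes encode the proteins that, with ribosomal RNA, build the large and the small subunit of the ribosome. They were taken from the 4 libraries by symbol: Rpl or Rps followed by a number, with at most one of the letters a, x, l or y and a further number, together with Rplp0, Rplp1, Rplp2 and Rpsa. The rule left out pseudogene names with -ps and the Rps6k kinases, and found 89 of 45773 genes. Of these, 77 were canonical ribosomal proteins, 46 of the large and 31 of the small subunit, and 12 were paralogs or copies. The rule used no measured value.

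All libraries came from CD8 T cells isolated from mouse tumours and were made with SMART-seq, which amplifies full-length cDNA from little RNA. In the gain experiment, CD8 T cells called PmelI in the labels were transduced with the retroviral vector MigRI or with Klf4, a zinc finger transcription factor. They were injected on day 7 into Rag2 KO mice, which make no T or B cells of their own, carrying tumours of 300000 MC38-gp100 cells, a colon carcinoma line, and GFP-positive cells were taken on day 15. The loss experiment used PD1-positive CD8 T cells taken on day 14 from tumours of 300000 MC38 cells in control (WT) mice and in mice labelled Klf4 cKO. From 10000 to 20000 T cells were collected per sample, and the labels name neither the Cre driver of the cKO nor the ages of the mice. Each group held 1 library, so there is no replicate, no test and no p-value, and every difference describes 1 library against another.

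In a growing cell, ribosomal protein mRNAs are among the most abundant transcripts, and their products are needed in equal numbers. Most of them belong to the TOP mRNAs, which begin with a C followed by a run of pyrimidines at the cap and whose translation depends on the kinase mTOR through the protein Larp1. In T cells, activation brings a large increase in ribosome production.

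Values are TPM, a transcript abundance scaled so that libraries share one total after reads are divided by the length of the transcript. TPM keeps no read depth, so depth is unknown and no counting interval can be given. Differences are of log2(TPM + 1) within an experiment, a scale that understates the change of low genes, and at least 1 log2 (2-fold) was called. A gene counted as measured when its mean TPM over the libraries was 1 or more, which left 12570 genes, 87 of the 89 members among them. All measured genes together had a median difference of 0.79 log2 in the gain comparison (Klf4-transduced minus MigRI) and 0.74 log2 in the loss comparison (labelled Klf4 cKO minus control). Relative differences are minus these medians.

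Klf4 transcripts stood at 8.69 TPM in MigRI against 26.05 TPM in the transduced library, and at 7.52 TPM in control against 9.28 TPM where the label says Klf4 cKO. The last value does not check that label, since the deleted part of the gene is not named, and directions for the library rest on the label. The 10 CD8 T cell markers, among them Cd3e, Cd8a and Trac, were above 0 in every library and summed to 24087 TPM in MigRI, 5732 with Klf4, 7765 in control and 17818 in the library labelled Klf4 cKO. Among B cell markers, Ms4a1 was listed at 0 in every library, while Cd79a was at 3.52, 20.6, 0.734 and 3.12 TPM and Cd79b at 3.29, 3.06, 1.52 and 3.22 TPM in the same order.

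Ribosomal protein transcripts took a smaller share of the Klf4-transduced library than of MigRI, and a smaller share of the library labelled Klf4 cKO than of control. The 89 genes made up 9.17% of all TPM in MigRI, 5.95% in the Klf4-transduced library, 13.2% in control and 10.3% in the library labelled Klf4 cKO. That share was 0.648 times that of MigRI in the first comparison and 0.778 times that of control in the second. Among the 100 genes with the highest TPM, 15 were members in MigRI, 10 with Klf4, 22 in control and 21 in the library labelled Klf4 cKO. In bulk RNA, fewer cells of a type and less RNA per cell cannot be told apart.

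Both subunits showed the same order. Canonical large subunit genes took 4.75%, 3.34%, 6.56% and 5.50% of TPM in MigRI, Klf4, control and the library labelled Klf4 cKO. Canonical small subunit genes took 4.22%, 2.51%, 6.39% and 4.62% in the same order. The difference between libraries was therefore not one of a single subunit.

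Members with short transcripts were also set against other genes with short transcripts. The 41 members whose longest annotated transcript is under 1000 nucleotides took 4.57%, 2.54%, 7.12% and 4.92% of all TPM in MigRI, Klf4, control and the library labelled Klf4 cKO. All genes under that length took 38.8% of TPM in MigRI, 21.7% with Klf4, 54.9% in control and 41.3% in the library labelled Klf4 cKO. Of that TPM, the 41 members made up 11.8%, 11.7%, 13.0% and 11.9%. Their share thus ran from 11.7% to 13.0% among genes with short transcripts and from 2.54% to 7.12% among all genes.

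**Figure D1:**
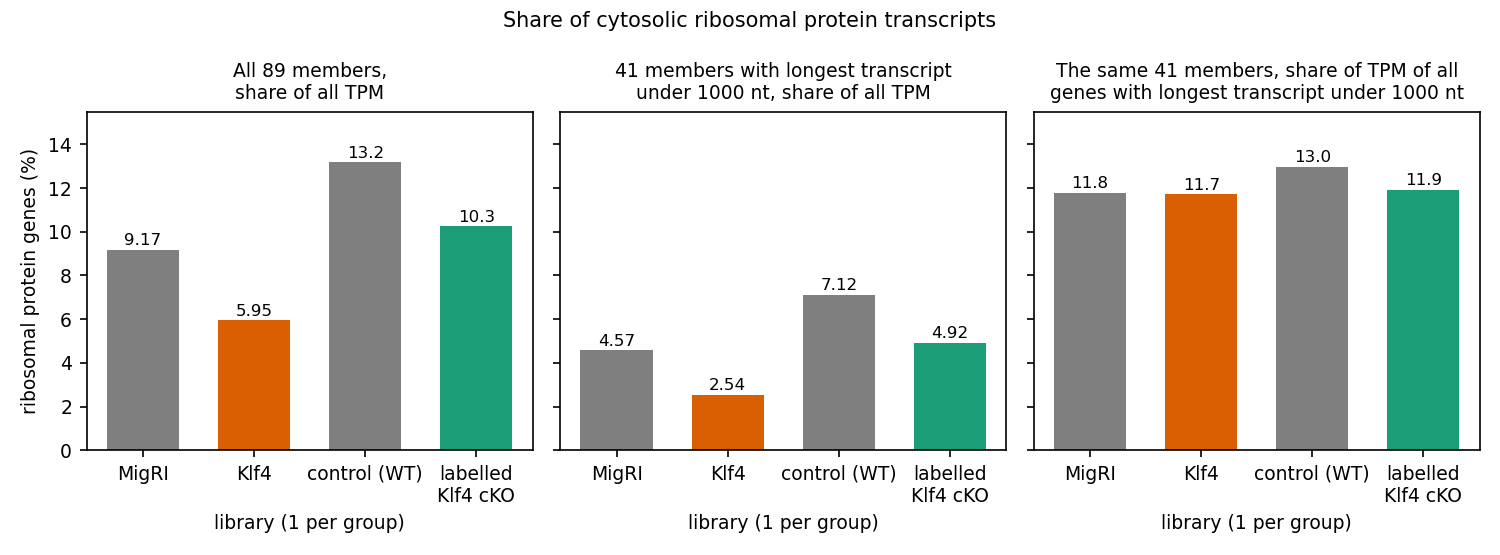
Bars give shares (%) of TPM in each library, 1 library per group: all 89 ribosomal protein genes of all TPM (left), the 41 members whose longest transcript is under 1000 nucleotides of all TPM (middle), and the same 41 of the TPM of all genes under that length (right). The left bars run from 5.95% to 13.2%, the middle bars from 2.54% to 7.12% and the right bars from 11.7% to 13.0%.

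Although ribosomes hold 1 copy of most of these proteins, their transcript levels per length differed widely within each library. The canonical genes ran from 67.4 TPM (Rps15a) to 6056 TPM (Rps9) in MigRI, with a median of 817 TPM. With Klf4 they ran from 34.6 TPM (Rps15a) to 3495 TPM (Rps9), with a median of 654 TPM. In control the range was from 124 TPM (Rpl22) to 11791 TPM (Rps25) with a median of 941 TPM, while the library labelled Klf4 cKO ran from 106 TPM (Rpl22) to 7744 TPM (Rps9) with a median of 1026 TPM. The control library was the most uneven, with an SD over the 77 genes of 1.56 on the log2(TPM + 1) scale, against 1.20 in MigRI, 1.14 with Klf4 and 1.09 in the library labelled Klf4 cKO. In each library the 10 highest members held 37.0%, 32.1%, 44.3% and 35.9% of member TPM.

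Rps9, a small subunit protein whose yeast counterpart takes part in decoding accuracy, was the highest member in 3 of the libraries. It stood at 6056 TPM in MigRI, 3495 TPM with Klf4, 8377 TPM in control, then 7744 TPM in the library labelled Klf4 cKO. As a part of member TPM it was steady, at 6.60%, 5.88%, 6.35% and 7.55%. Rpl13, Rpl32, Rps14 and Rps25 were the others of the 5 genes with the highest mean share. Rpl13 was at 3547, 2290, 2688 and 4526 TPM and Rpl32 at 2790, 1813, 5420 and 4597 TPM, in the order MigRI, Klf4, control and labelled Klf4 cKO. Rps14, a small subunit protein, was at 3916, 1777, 4942 and 3106 TPM in that order. Each of these genes was lower with Klf4 than in MigRI, while Rpl13 alone among the 5 was higher in the library labelled Klf4 cKO than in control.

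Rps25, a small subunit protein needed for translation from several viral entry sites, stood apart in 1 library. It was at 2022 TPM in MigRI, 901 TPM with Klf4, 11791 TPM in control, then 1473 TPM in the library labelled Klf4 cKO. It held 8.94% of member TPM in control and from 1.44% to 2.20% in the other libraries. Without it, members took 12.01% of TPM in control and 10.1% in the library labelled Klf4 cKO. Its difference in the loss comparison, -3.00 log2, was the lowest of all members. The gene lies at chr9:44407139-44410427 on the plus strand of mm10.

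**Figure D2:**
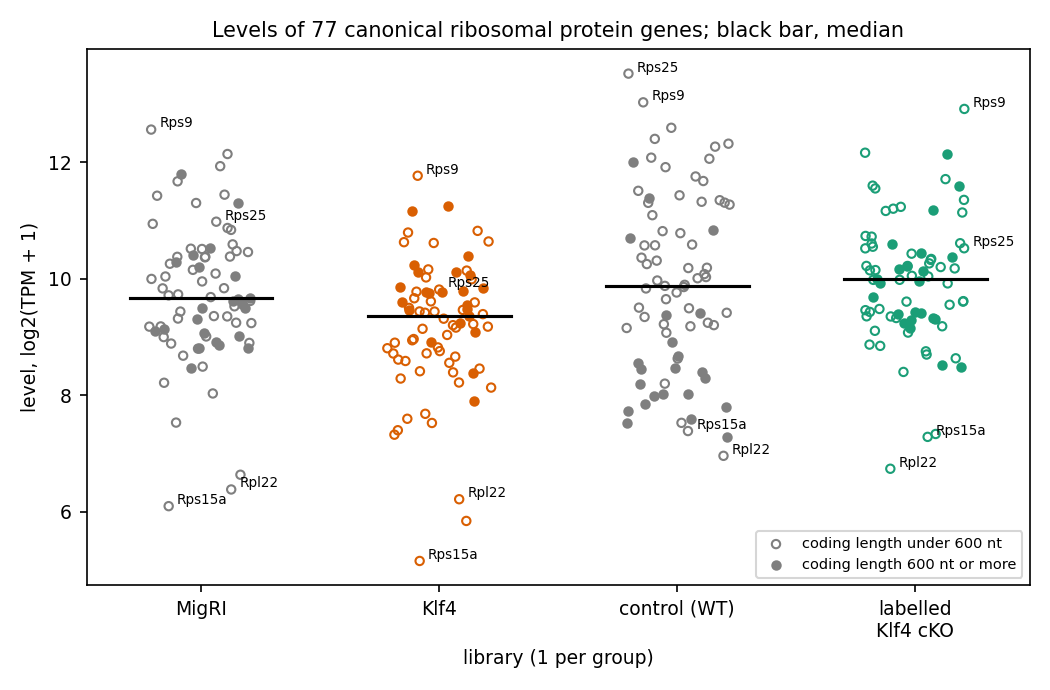
Each point is 1 of the 77 canonical genes in 1 library, as log2(TPM + 1), with genes of at least 600 coding nucleotides filled and shorter ones open, and the black bar is the median. Points of the control library spread widest, with filled points mostly in the lower part, and Rps25 lies on top there.

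The order of members by level went with coding length in the Klf4-transduced and control libraries. Over the 77 canonical genes, level and coding length on log2 scales gave a Spearman rho of -0.02 in MigRI (Pearson r 0.02), 0.44 with Klf4 (r 0.36), -0.50 in control (r -0.49) and -0.02 in the library labelled Klf4 cKO (r 0.01). In control, long coding sequences thus went with low levels, and with Klf4 with high ones. These correlations are a description across genes that share 1 library and 1 set of gene models, and genes are not independent replicates.

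In the gain comparison, which sets cells given Klf4 against cells given MigRI, most ribosomal protein genes were lower with Klf4. The median over the 87 measured members was -0.60 log2, and 21 lay above 0 and 66 below. At least 2-fold lower were 17 members, 19.5% of those measured, where 10.3% of all measured genes were, and 2 members were at least 2-fold higher (2.30%) where 43.7% of all measured genes were. Relative to the median gene, the member median was -1.39 log2, with 64 members at least 2-fold lower (73.6%, all measured genes 23.6%) and 0 higher (all measured genes 21.4%). Large and small subunit genes had close medians, -0.59 log2 over 46 and -0.79 log2 over 31 canonical genes.

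Among the lowest members were short ones. Rpl35, which sits at the exit of the peptide tunnel, was at 3270 TPM in MigRI against 1019 TPM with Klf4, a difference of -1.68 log2. Rpl38, known for its part in translation of homeobox mRNAs, was at 1334 and 499 TPM, a difference of -1.42 log2, and Rpl31 at 477 and 183 TPM, a difference of -1.38 log2. The paralogs Rpl22l1 and Rps27l were also among the 6 lowest. Of these 5 named genes, none has a coding sequence over 387 nucleotides.

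Among the highest members were long ones. Rps2, a small subunit protein at the mRNA entrance, was at 518 TPM in MigRI against 1070 TPM with Klf4, a difference of 1.04 log2. Rpl3, near the peptidyl transferase centre, was at 448 and 881 TPM, a difference of 0.97 log2. Rplp0, the base of the stalk that binds elongation factors, was at 1254 and 2433 TPM, a difference of 0.96 log2. Rpl4, which lines the tunnel, was at 722 and 1200 TPM, a difference of 0.73 log2, and Rpl7 at 547 and 880 TPM, a difference of 0.69 log2. Rpl7l1 completed the 6 highest. Of these 6, Rps2, Rpl3, Rplp0 and Rpl7l1 also lay above the median gene, by 0.25, 0.18, 0.16 and 0.38 log2, while Rpl4 and Rpl7 lay below it.

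The transcripts of the 3 stalk proteins, which bind elongation factors together, did not move together in deposited TPM. Rplp0 was higher with Klf4, while Rplp1 was at 1425 TPM in MigRI against 773 TPM with Klf4, a difference of -0.88 log2. Rplp2 was at 1461 and 707 TPM, a difference of -1.05 log2. Rplp0 has 951 coding nucleotides, Rplp1 342 and Rplp2 345. Minus the median of other coding genes in their class of transcript length, Rplp0, Rplp1 and Rplp2 were at -0.002, -0.005 and -0.17 log2. That scale, used further below, was chosen after the length pattern was seen. Rps6, the substrate of S6 kinase, was at 755 and 775 TPM, a difference of 0.04 log2. Rpl5 and Rpl11, which together bind Mdm2 when ribosome assembly fails, were at 535 and 602 TPM and at 511 and 351 TPM, differences of 0.17 and -0.54 log2.

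In the loss comparison, which sets the mice labelled Klf4 cKO against control mice, the ribosomal protein genes split into a higher and a lower set. The median over the 87 measured members was -0.10 log2, with 38 above 0 and 49 below. At least 2-fold higher were 22 members (25.3%), where 38.4% of all measured genes were, and at least 2-fold lower were 11 members (12.6%), where 6.92% of all measured genes were. Relative to the median gene, the member median was -0.84 log2, with 5 members at least 2-fold higher (5.75%, all measured genes 12.4%) and 34 lower (39.1%, all measured genes 16.2%). The split of calls thus turned from mostly higher to mostly lower with the scaling.

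Of the 22 members in the higher set, 17 have at least 600 coding nucleotides, 4 are copies with no coding sequence in the annotation, and 1, Rpl39l, has under 400. Rps3a1, a small subunit protein near the mRNA exit, was at 407 TPM in control against 1543 TPM in the library labelled Klf4 cKO, a difference of 1.92 log2. Rpl3 was at 184 and 630 TPM, a difference of 1.77 log2, and Rplp0 at 353 and 1188 TPM, a difference of 1.75 log2. Rpl7 was at 315 and 1026 TPM and Rpl4 at 258 and 828 TPM, differences of 1.70 and 1.68 log2. Rpl7l1 was again among the 6 highest. Rps6 was at 253 and 693 TPM, a difference of 1.45 log2, and Rpl5 at 193 and 368 TPM, a difference of 0.93 log2. Rpl11 was at 650 and 784 TPM, a difference of 0.27 log2.

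Of the 11 members in the lower set, 9 have under 400 coding nucleotides and 2 from 400 to under 600. After Rps25, Rpl38 was lowest, at 2185 TPM in control against 752 TPM in the library labelled Klf4 cKO, a difference of -1.54 log2. Rpl35 was at 6187 and 2298 TPM, a difference of -1.43 log2. Rps21 and Rps28, both among the smallest proteins of the small subunit, were at 1045 and 460 TPM and at 1317 and 581 TPM, a difference of -1.18 log2 each. In deposited TPM the stalk split once more. Rplp1 was at 2920 and 1692 TPM and Rplp2 at 2531 and 1565 TPM, differences of -0.79 and -0.69 log2, against 1.75 log2 for Rplp0. Minus the median of their class of transcript length, Rplp0, Rplp1 and Rplp2 were at 0.40, 0.05 and 0.14 log2.

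Coding length ordered the differences in both comparisons. The lengths are those of GENCODE vM21, matched by symbol, and may differ from those behind the deposited TPM, whose annotation is not given in the sources used here. With Klf4, the Spearman rho between difference and coding length was 0.59 over the 77 canonical genes (Pearson r 0.64), and in the loss comparison it was 0.85 (r 0.79). Of 27 measured members with under 400 coding nucleotides, 26 lay below 0 with Klf4 and 25 in the loss comparison, where Rpl39l and Rpl22l1 were the exceptions. Of 24 members with at least 600 coding nucleotides, 15 lay above 0 with Klf4 and 22 in the loss comparison. Medians over classes under 400, 400 to under 600 and at least 600 nucleotides were -0.90, -0.78 and 0.20 log2 with Klf4, and -0.71, -0.14 and 1.40 log2 in the loss comparison. Over the 9961 other measured coding genes, many of them longer than any member, the same rho was 0.17 with Klf4 and -0.20 in the loss comparison (r 0.19 and -0.09). In the same classes of coding length, the medians of these other genes were -0.55, 0.20 and 1.13 log2 with Klf4. In the loss comparison they were -0.13, 0.96 and 0.83 log2. The copies without a coding sequence in the annotation, 6 members, are left out of these values.

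**Figure D3:**
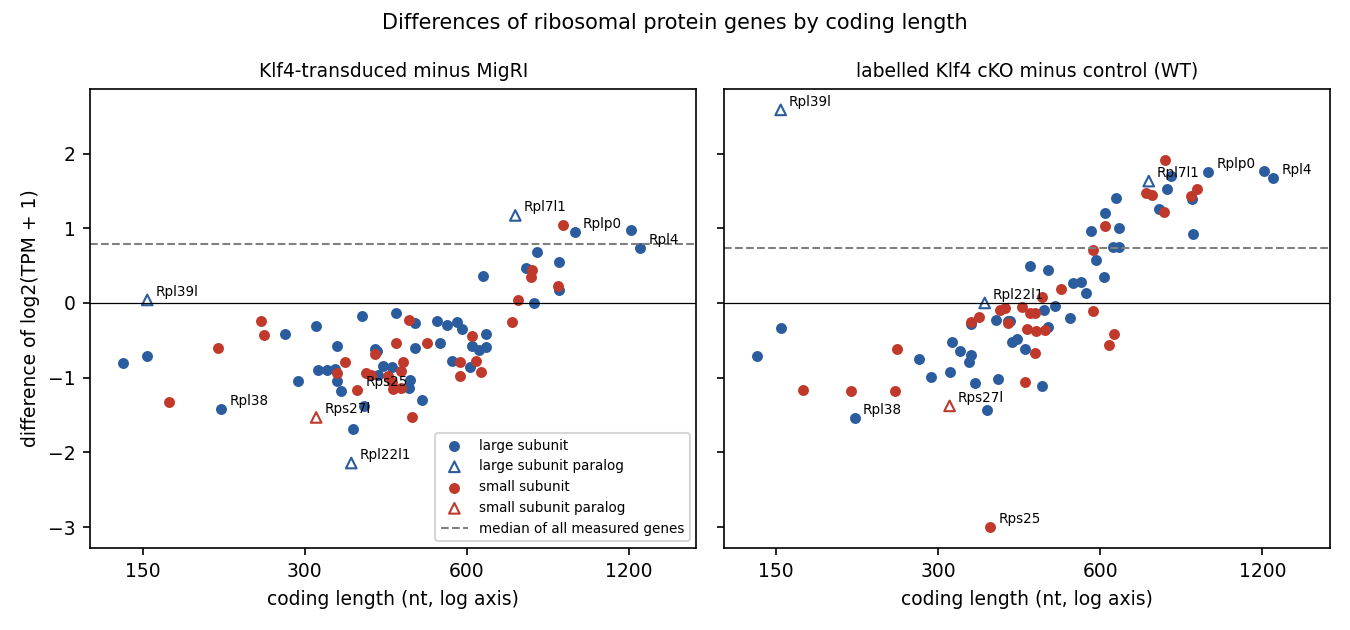
Each point is 1 of the 81 measured members with a coding sequence, by coding length (nucleotides, log axis) against the difference of log2(TPM + 1), for Klf4-transduced minus MigRI (left) and the library labelled Klf4 cKO minus control (right). Long members lie higher in both panels, Rps25 and Rpl39l lie off the band on the right, and the dashed line marks the median of all measured genes at 0.79 and 0.74 log2.

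The members' differences were alike in the 2 experiments, which share no library. Over the 77 canonical genes the Spearman rho between the differences was 0.71 (Pearson r 0.78), as a description of genes that share their length and base composition. Higher in both were 14 genes, lower in both 46, higher only in the library labelled Klf4 cKO 17, and higher only with Klf4 0. As shares these were 18.2%, 59.7%, 22.1% and 0%, and over all measured genes 62.1%, 12.6%, 16.02% and 8.85%. At least 2-fold lower in both were 9 members: Rpl23a, Rpl31, Rpl34, Rpl35, Rpl38, Rps15, Rps25, Rps27l and Rps29. They are 10.3% of measured members, where 2.86% of all measured genes were lower in both. Rps2 and Rpl7l1 were at least 2-fold higher in both, 2.30% of measured members where 20.3% of all measured genes were.

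Other coding genes of like transcript length were set beside the members. Transcript lengths came from GENCODE vM21 on mm10 for 10042 measured coding genes, 81 of them members. Below 650 nucleotides, the median with Klf4 was -0.88 log2 for 23 members and -0.88 log2 for 213 other genes, and in the loss comparison -0.71 and -0.84 log2. From 650 to under 1000 nucleotides, the medians with Klf4 were -0.59 log2 for 34 members and -0.35 log2 for 608 others, and in the loss comparison 0.23 and 0.54 log2. In these classes the members' medians lay within the interquartile range of the other genes.

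Among longer transcripts the members lay lower than other genes. From 1000 to under 2000 nucleotides, the medians with Klf4 were -0.26 log2 for 20 members and 0.96 log2 for 2645 others, and in the loss comparison 0.42 and 1.35 log2. At 2000 nucleotides or more there were 4 members, too few to describe as a class. Minus the median of their own length class, the 81 members had medians of -0.27 log2 with Klf4 and -0.22 log2 in the loss comparison. On that scale, chosen after the length pattern was seen, 20 members were at least 2-fold lower (24.7%, other coding genes 19.7%) and 1 higher (1.23%, other coding genes 19.6%) with Klf4. In the loss comparison 16 were lower (19.8%, other coding genes 10.9%) and 2 higher (2.47%, other coding genes 7.8%). Rps25 stayed apart in the loss comparison, at -3.54 log2. With Klf4 it was at -0.82 log2, within the members' interquartile range of -0.97 to 0.07 log2.

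**Figure D4:**
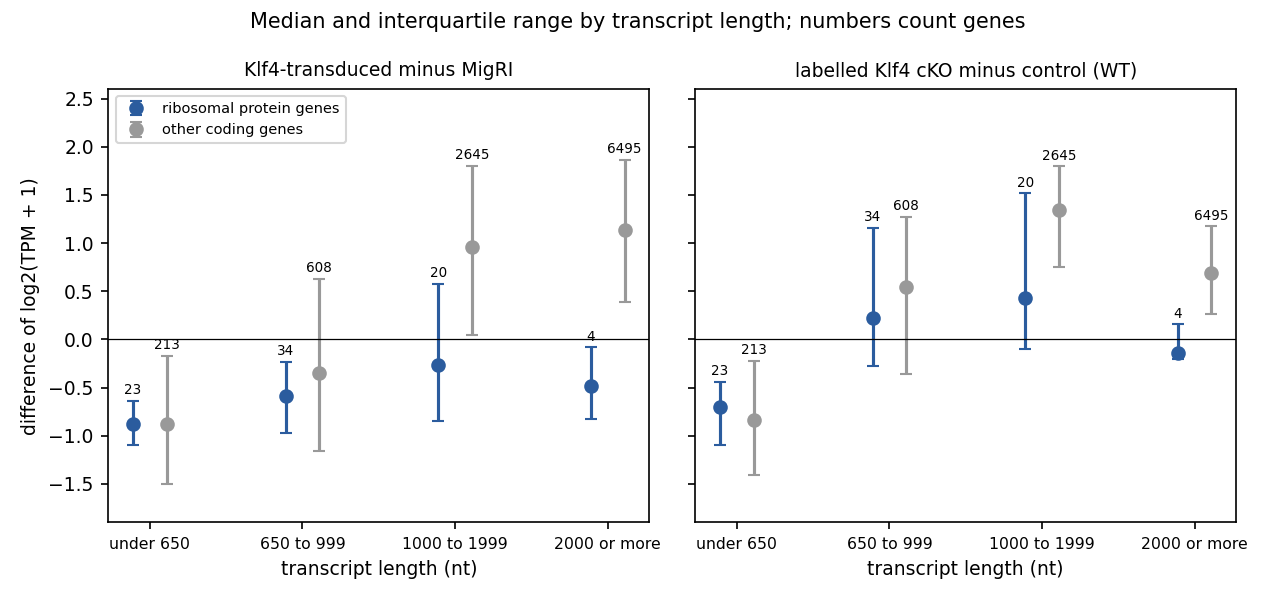
Points are medians of the difference of log2(TPM + 1) by class of transcript length (nucleotides) and bars the interquartile range, for ribosomal protein genes and for other measured coding genes, with the number of genes above each bar. Below 650 nucleotides both sets have medians from -0.88 to -0.71 log2, and from 1000 to under 2000 nucleotides the other genes lie higher.

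Several members have a paralog, another gene encoding a closely related protein. Rpl22l1, the paralog of Rpl22, exceeded its partner in 3 of the libraries: it was at 251 TPM in MigRI, 56.1 TPM with Klf4, 363 TPM in control, then 363 TPM in the library labelled Klf4 cKO. Rpl22, which is required for the development of alpha beta T cells, was at 82.5, 73.3, 124 and 106 TPM in the same order. Rpl22l1 made up 75.3% of the pair in MigRI, 43.3% with Klf4, 74.6% in control and 77.4% in the library labelled Klf4 cKO. With Klf4 it differed by -2.14 log2, the lowest of all members, and by -1.27 log2 relative to its length class. In the loss comparison the paralog differed by 0.00 log2 and Rpl22 by -0.22 log2.

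Rps27l, a paralog of Rps27 that is a target of p53, was at 1452 TPM in MigRI, 501 TPM with Klf4, 1920 TPM in control, then 738 TPM in the library labelled Klf4 cKO. Rps27 was at 607, 452, 3464 and 2256 TPM in the same order. The paralog was above its partner in both libraries of the gain experiment (70.5% and 52.6% of the pair) and below it in both of the loss experiment (35.7% and 24.7%). Rpl7l1, which acts in ribosome assembly, was at 82.2 TPM in MigRI, 187 TPM with Klf4, 14.2 TPM in control, then 46.1 TPM in the library labelled Klf4 cKO, differences of 1.17 and 1.63 log2.

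Rpl39l, a paralog known mainly from testis, was at 0.995, 1.05, 0.773 and 9.65 TPM in MigRI, Klf4, control and the library labelled Klf4 cKO. Its difference in the loss comparison, 2.59 log2, was the highest of all members, though its level was 2.02% of the pair with Rpl39. Rpl39 was at 261, 159, 589 and 467 TPM in that order. Rpl3l, a paralog of muscle, was at 0.481 TPM in MigRI, 0.302 TPM with Klf4 and 0.435 TPM in control, and was listed at 0 in the remaining library. Rpl10l, a paralog of testis, was listed at 0 in every library. Rpl3l and Rpl10l were the 2 members that were not measured.

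The other 6 symbols, Rpl6l, Rpl32l, Rps3a2, Rps3a3, Rps4l and Rps12l1, are processed pseudogenes in the annotation, copies of an mRNA inserted elsewhere. Rpl6l made up 12.01%, 11.9%, 12.3% and 11.7% of its pair with Rpl6 in MigRI, Klf4, control and the library labelled Klf4 cKO. Rps3a2 made up 10.9%, 10.8%, 12.8% and 10.6% of its pair with Rps3a1. These shares varied little while Rps3a1 itself ran from 407 to 1543 TPM. At the level of gene tables, reads of a copy and of its parent gene cannot be told apart where the sequences match, so values of these pairs are uncertain. Rows with -ps in their names, 224 in all, took 0.512%, 0.361%, 0.599% and 0.580% of TPM in the same order.

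**Figure D5:**
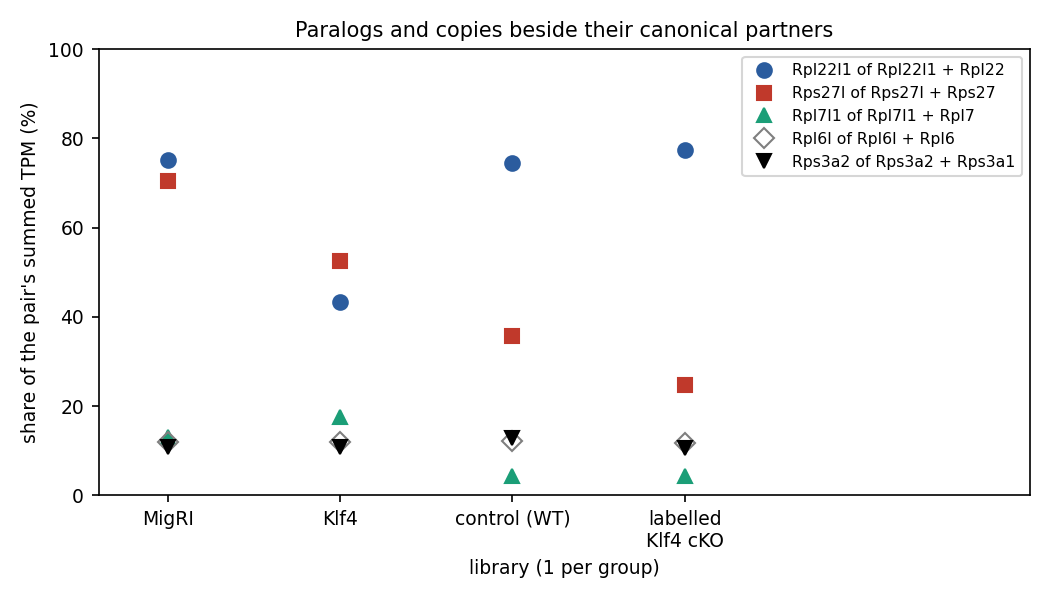
Points give the share (%) of the summed TPM of a pair that falls to the paralog or copy, in each of the 4 libraries. Rpl22l1 is at 43.3% with Klf4 and from 74.6% to 77.4% elsewhere, Rps27l runs from 24.7% to 70.5%, and the copies Rpl6l and Rps3a2 stay between 10.6% and 12.8%.

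Start sites are shown because the TOP sequence at the start is the feature that these mRNAs are known to share. RefSeq promoter sequences on GRCm38.p6 gave 76 windows for 64 of the 89 members. The lines below give 30 bases, 15 on each side of the annotated start, with the longest run of C and T in capitals, for members with low and with high differences and for the pair of Rpl22 paralogs.

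Rpl38 (chr11:114668565-114668594, plus strand): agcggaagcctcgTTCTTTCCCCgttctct

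Rpl35 (chr2:39005117-39005146, minus strand): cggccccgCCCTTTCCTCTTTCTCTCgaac

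Rplp2 (chr7:141447636-141447665, plus strand): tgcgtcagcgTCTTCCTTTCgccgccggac

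Rps6 (chr4:86857353-86857382, minus strand): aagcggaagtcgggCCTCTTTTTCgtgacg

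Rpl4 (chr9:64173372-64173401, plus strand): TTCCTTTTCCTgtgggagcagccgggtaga

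Rplp0 (chr5:115559452-115559481, plus strand): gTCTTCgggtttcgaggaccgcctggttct

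Rpl22l1 (chr3:28805493-28805522, plus strand): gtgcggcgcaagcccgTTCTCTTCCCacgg

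Rpl22 (chr4:152325711-152325740, plus strand): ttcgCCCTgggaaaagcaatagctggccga

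The longest run was 10 bases in Rpl38, 18 in Rpl35, 10 in Rplp2 and 10 in Rps6, which stand on both sides of the split by length. Rpl4 had 11, ahead of the annotated start, Rplp0 5 and Rpl22l1 10, against 4 in the window of Rpl22 shown and 5 in its other window. A run of at least 6 lay in 52.6% of member windows and in 29.2% of all 32851 windows. By coding length, it lay in 18 of 29 member windows under 400 nucleotides, 10 of 21 from 400 to under 600 and 11 of 25 at 600 or more. In the whole 300 bases, on either strand, CTCTTTC was found in 27.6% of member windows and 8.16% of all. CCGGAAG, the core recognised by ETS factors, was found in 35.5% and 8.86%, and AAGATGGC, recognised by YY1, in 10.5% and 2.75%. A match is a description of letters, annotated starts can lie some bases from the used one, and windows of 1 gene can overlap.

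Some ribosomal proteins have symbols outside the rule. Fau, which encodes a small subunit protein fused to a ubiquitin-like part, was at 1687 TPM in MigRI, 1103 TPM with Klf4, 2611 TPM in control, then 1461 TPM in the library labelled Klf4 cKO. Rpl36al, a large subunit protein, was at 840, 360, 1124 and 681 TPM in the same order. Both of these short genes were lower in both comparisons. Rack1, a longer gene for a scaffold on the small subunit, was at 854, 1420, 263 and 569 TPM, differences of 0.73 and 1.11 log2.

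Other genes of translation lay near or below all measured genes with Klf4 and above them in the loss comparison. Of 18 measured elongation factors and other TOP mRNAs, 3 (16.7%) were at least 2-fold higher with Klf4, against 43.7% of all measured genes, and 0 lower. Their median of 0.62 log2 was -0.17 relative to the median gene. In the loss comparison 12 were higher (66.7%, all measured genes 38.4%) and 1 lower, with a median of 1.32 log2, or 0.58 relative to the median gene. The median transcript length of this list was 1829 nucleotides, and other coding genes from 1000 to under 2000 nucleotides had a median of 1.35 log2 there. Eef1g, a subunit of elongation factor 1, was at 200.1 TPM in MigRI against 817 TPM with Klf4. Btf3, part of the nascent chain complex, was at 203 TPM in control against 817 TPM in the library labelled Klf4 cKO. Gas5, a short noncoding TOP transcript, was at 1935 TPM in control against 765 TPM in the library labelled Klf4 cKO. Of 23 initiation factor genes, 8 were higher with Klf4 (34.8%, all measured genes 43.7%) and 1 lower, with a relative median of -0.17 log2. Of the 23, in the loss comparison, 13 were higher (56.5%, all measured genes 38.4%) and 1 lower, with a relative median of 0.55 log2. This list had a median transcript length of 2427 nucleotides and a loss median of 1.28 log2, against 0.69 log2 for other coding genes of 2000 nucleotides or more. Eif4h, a partner of the helicase Eif4a, was at 39.1 TPM in MigRI against 236 TPM with Klf4.

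Of 28 measured ribosome assembly genes, 11 were at least 2-fold higher with Klf4 (39.3%, all measured genes 43.7%) and 1 lower, with a relative median of -0.15 log2. Of the 28, in the loss comparison, 19 were higher (67.9%, all measured genes 38.4%) and 1 lower, with a relative median of 0.68 log2. The list's loss median was 1.41 log2, at a median transcript length of 2361.5 nucleotides, against 0.69 log2 for other coding genes of 2000 nucleotides or more. Pes1, an assembly factor of the large subunit, was at 12.9 and 82.9 TPM in MigRI and Klf4, and Myc, a transcription factor that drives ribosome production, at 21.9 and 132 TPM. Mrto4, an assembly factor related to Rplp0, was at 13.7 TPM in control against 63.5 TPM in the library labelled Klf4 cKO. Nop10, a small protein of the pseudouridine complex, was lower in both, at 578 and 244 TPM and at 835 and 353 TPM. Of 15 measured genes of the mTOR and S6 kinase pathway, 7 were higher with Klf4 and 6 in the loss comparison, 46.7% and 40.0% against 43.7% and 38.4% of all measured genes, and 1 was lower in each. Pdcd4, an inhibitor of Eif4a, was the lower one, at 26.4 and 3.79 TPM and at 83.9 and 23.9 TPM.

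Mitochondrial ribosomal proteins, which build a separate ribosome, also held higher and lower genes. With Klf4, 7 of 75 were at least 2-fold higher (9.33%, all measured genes 43.7%) and 21 lower (28.0%, all measured genes 10.3%), with a median of -0.42 log2. Of the 75, in the loss comparison, 37 were higher (49.3%, all measured genes 38.4%) and 8 lower (10.7%, all measured genes 6.92%), with a median of 0.98 log2. Mrpl33, whose transcript has 478 nucleotides, was at 1224 and 335 TPM in MigRI and Klf4 and at 2442 and 656 TPM in control and the library labelled Klf4 cKO. Mrpl10, with 1708 nucleotides, was at 27.6 and 106 TPM and at 7.33 and 29.3 TPM. Length did not order every gene of this list: Mrpl57, with 2877 nucleotides, was at 139 and 39.8 TPM and at 212 and 88.5 TPM. The relation of differences with length was not computed for this list. Nuclear genes for small subunits of oxidative phosphorylation, mostly short, with a median transcript length of 606 nucleotides, had lower medians. These were -1.29 log2 with Klf4 and -1.30 log2 in the loss comparison. Of 37, 34 were at least 2-fold lower with Klf4 (91.9%, all measured genes 10.3%) and 27 in the loss comparison (73.0%, all measured genes 6.92%), with 0 higher in each. Uqcr10, a small subunit of complex III, was at 4561 and 1236 TPM and at 8869 and 1755 TPM. Not every gene of this list was short: Ndufb2, with 2413 nucleotides, was at 307 and 125 TPM and at 689 and 228 TPM in the same order.

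Marker sums of other cells also differed within each experiment, some higher and some lower. Erythroid markers summed to 974, 785, 7.35 and 2.63 TPM in MigRI, Klf4, control and the library labelled Klf4 cKO. The CD4 T cell markers Cd4 and Foxp3 summed to 1.45, 0.621, 5.45 and 1.27 TPM in that order. For the counts that follow, the shares over all measured genes are again 43.7% higher and 10.3% lower with Klf4, and 38.4% higher and 6.92% lower in the loss comparison. Of 11 measured macrophage and monocyte markers, 11 were at least 2-fold higher with Klf4 and 7 in the loss comparison, and the list summed to 1060 TPM in MigRI, 5298 with Klf4, 442 in control and 1470 in the library labelled Klf4 cKO. Fibroblast and endothelial markers summed to 134, 1269, 28.7 and 245 TPM, with 5 of 6 higher with Klf4 and 4 of 6 in the loss comparison, and Cdh5 was listed at 0 in control. All 10 CD8 T cell markers were at least 2-fold lower with Klf4, and 8 of 10 were at least 2-fold higher in the loss comparison. Their part in the ribosomal protein shares was not tested. Tmsb4x, a short transcript for an actin-binding peptide, alone took 3.47%, 0.405%, 10.5% and 6.85% of TPM in MigRI, Klf4, control and the library labelled Klf4 cKO.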

How the data were processed

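SMART-seq libraries were made from 4 samples of tumour CD8 T cells, 1 per group. The authors deposited one table of TPM by gene symbol, with 45777 rows, for each library. The submitters' processing notes name mm10 as the build and list HISAT2, StringTie, Trimmomatic and edgeR. For these tools, roles, versions and annotation were not given in the sources used here. The control table held 26 symbols turned into calendar dates, of which 22 could be restored by symbol, and the remaining 4 were dropped from all libraries.

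Shares, differences of log2(TPM + 1) and medians were computed with Python 3.11.15, pandas 2.3.3 and numpy 2.4.6. Simulated tables with planted shifts tested the differences and their medians, not the shares or the length classes. Transcript and coding lengths were those of the basic coding transcripts with the longest coding sequence in GENCODE vM21, matched by symbol. The annotation lacked 809 measured symbols, so lengths covered at least 92.5% of measured coding genes. Named members were the 5 with the highest mean share, the 6 highest and 6 lowest differences at 20 TPM or more, the stalk proteins, Rpl5, Rpl11, Rps6, Rpl22 and paralog pairs. From other lists, up to 2 genes at each end were drawn on. Cd3e, Cd8a, Trac, Klf4, Tmsb4x, Mrpl57 and Ndufb2, and members named as exceptions, were added. Members and lists were chosen with earlier results of these data known. The kit does not mark strand. Values of some genes are not reported here.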

Additional observations from a re-analysis of the deposited data

How the results depend on the processing

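Alternatives were pseudocounts of 0.1 and 5, filters at 0 and 5 TPM, median of ratios scaling, differences relative to the median gene, TPM rescaled without members, mitochondrial genes and receptor segments, canonical genes alone, and other denominators or member sets for the shares. Differences relative to genes of the same length class and values without Rps25 were chosen after seeing the data. No paired analysis was possible because each group has 1 library, and for the same reason no library could be left out. With Klf4, the member median went from -0.60 to -1.60 log2 under median of ratios scaling and to -1.39 relative to the median gene, members at least 2-fold lower went from 17 to 66 and 64, and members at least 2-fold higher from 2 to 0 and 0. That last count was 1 with rescaled TPM, 1 with canonical genes alone and 1 relative to the length class. In the loss comparison, members at least 2-fold higher went from 22 to 3 under median of ratios scaling, 5 relative to the median gene and 2 relative to the length class, and members at least 2-fold lower from 11 to 42 under median of ratios scaling and 34 relative to the median gene. In the Klf4-transduced library the share went from 5.95% to 11.7% when only members and other genes with short transcripts were counted. By construction, these alternatives subtract a larger value, drop members or change the denominator. Of 456 recomputed differences of named members, 364 stayed on their side of 2-fold, 50 fell below it, 42 passed it, and 0 of the called ones changed sign. Depth is unknown, and a single library per group gives no spread between animals.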
